A study of Mus musculus with 22 samples.

Results

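Chromatin accessibility was mapped at 6 mouse genes of a synaptic adhesion pair: the teneurins Tenm2, Tenm3 and Tenm4 and the latrophilins Adgrl1, Adgrl2 and Adgrl3. They are 6 of the 21887 protein-coding genes of the annotation used, and a peak belonged to a gene when its summit lay within the GRCm38 gene body. They were chosen from this series for their tissue pattern, so the contrast of hippocampus with frontal cortex is given here as a description. The contrast of LPS with saline within a tissue did not enter the choice and was tested.

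Teneurins are large single-pass membrane proteins that reach across the synapse and bind latrophilins, adhesion G protein-coupled receptors first known as receptors for the spider toxin alpha-latrotoxin. Latrophilins also bind the FLRT membrane proteins, which in turn bind UNC5 receptors, so these families form joint contacts between axons and dendrites. In mouse hippocampus Tenm3 directs the topographic projection of CA1 onto the subiculum, and Adgrl2 and Adgrl3 act in postsynaptic membranes of CA1 pyramidal neurons.

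The mice were adult wild type C57BL/6J males. Every animal had received corticosterone (CORT) and diisopropyl fluorophosphate (DFP), an irreversible acetylcholinesterase inhibitor, so the saline animals carry that exposure too and there were no unexposed animals. The groups were CORT+DFP+LPS at 6 h, at 12 h and at 24 h, with 3 animals each, and CORT+DFP+Saline at 6 h, with 2 animals. Lipopolysaccharide (LPS) is a bacterial wall component that triggers systemic inflammation. Hippocampus and frontal cortex of the same 11 animals each gave a library, so 22 libraries were compared. Saline was collected at 6 h alone, so at 12 and 24 h the effect of LPS and that of collection time cannot be told apart, and all comparisons within a tissue use the same 2 saline animals. The tissue was bulk, so fewer cells of a type and less accessibility per cell cannot be told apart.

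The libraries held 204561 to 307140 distinct peak intervals, and peak lists give no read depth. Peaks in 8 genes that mark hippocampus summed to 92.5 to 112.9 per 100000 intervals in hippocampus libraries and 83.3 to 91.6 in frontal cortex libraries. Peaks in 8 frontal cortex marker genes summed to 47.8 to 58.3 in hippocampus libraries and 75.2 to 83.1 in frontal cortex libraries, so neither sum overlapped between tissues. By gene, 6 of 8 hippocampus markers had more peaks in hippocampus and 6 of 8 frontal cortex markers more in frontal cortex. Peaks in 8 striatum marker genes overlapped in sum, at 44.1 to 53.0 in hippocampus and 49.1 to 59.3 in frontal cortex, with 8 of 8 genes lower in hippocampus, as were 5 of 5 oligodendrocyte markers.

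Promoters were examined first, and 7 of the 9 listed starts of the 6 genes are printed because some of these starts carried a peak in every library and others in none. Each sequence runs 5′ to 3′ in the direction of the gene, from 250 bases before to 50 bases after the start, as given by RefSeq for GRCm38.p6. Capitals mark matches on either strand to 4 searched motifs: the GC box GGGCGG, the cyclic AMP response element TGACGTCA, the TATA motif TATAAA and the AP-1 motif TGANTCA. Across 32851 mouse promoters of that length the GC box occurred in 35.7%, the cyclic AMP response element in 1.79%, the TATA motif in 13.6% and the AP-1 motif in 7.81%. No searched motif contains another, and a match is a description only.
Adgrl1 promoter, chr8:83899848-83900147, plus strand: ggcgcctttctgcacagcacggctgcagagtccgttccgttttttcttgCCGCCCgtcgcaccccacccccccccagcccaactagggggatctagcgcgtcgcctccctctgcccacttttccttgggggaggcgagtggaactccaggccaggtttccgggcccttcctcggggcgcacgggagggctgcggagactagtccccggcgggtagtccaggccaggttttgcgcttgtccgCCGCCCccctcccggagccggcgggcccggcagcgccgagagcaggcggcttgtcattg
Adgrl3 promoter, chr5:81020321-81020620, plus strand: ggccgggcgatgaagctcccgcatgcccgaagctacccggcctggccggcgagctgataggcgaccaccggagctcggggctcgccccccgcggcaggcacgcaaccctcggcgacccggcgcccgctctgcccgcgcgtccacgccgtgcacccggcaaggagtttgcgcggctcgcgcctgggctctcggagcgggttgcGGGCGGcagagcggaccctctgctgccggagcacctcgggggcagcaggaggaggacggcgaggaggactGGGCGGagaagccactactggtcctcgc
Tenm4 promoter, chr7:96211421-96211720, plus strand: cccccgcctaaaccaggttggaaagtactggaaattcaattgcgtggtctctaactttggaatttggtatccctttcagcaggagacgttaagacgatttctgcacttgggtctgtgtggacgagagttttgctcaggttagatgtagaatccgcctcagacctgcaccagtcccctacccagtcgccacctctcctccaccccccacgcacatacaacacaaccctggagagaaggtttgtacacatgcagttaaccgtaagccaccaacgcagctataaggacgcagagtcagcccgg
Tenm4 promoter, chr7:96170994-96171293, plus strand: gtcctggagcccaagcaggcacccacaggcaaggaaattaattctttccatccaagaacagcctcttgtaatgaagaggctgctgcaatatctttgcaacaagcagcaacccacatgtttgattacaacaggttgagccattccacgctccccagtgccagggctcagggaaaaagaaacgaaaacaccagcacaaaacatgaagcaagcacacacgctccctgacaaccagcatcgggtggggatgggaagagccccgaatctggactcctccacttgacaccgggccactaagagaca
Tenm3 promoter, chr8:48674641-48674940, minus strand: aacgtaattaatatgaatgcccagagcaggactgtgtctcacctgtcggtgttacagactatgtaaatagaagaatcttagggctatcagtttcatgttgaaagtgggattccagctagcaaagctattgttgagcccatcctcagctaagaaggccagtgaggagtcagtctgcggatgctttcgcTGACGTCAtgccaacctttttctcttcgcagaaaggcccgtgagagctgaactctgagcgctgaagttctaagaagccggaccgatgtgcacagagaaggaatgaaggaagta
Tenm2 promoter, chr11:36944192-36944491, minus strand: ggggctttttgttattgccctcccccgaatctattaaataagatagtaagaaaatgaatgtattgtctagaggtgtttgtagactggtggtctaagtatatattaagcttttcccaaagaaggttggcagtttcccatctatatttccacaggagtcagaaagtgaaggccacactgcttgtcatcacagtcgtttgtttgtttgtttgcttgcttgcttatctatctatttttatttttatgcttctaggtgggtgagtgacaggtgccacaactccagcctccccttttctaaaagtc
Adgrl2 promoter, chr3:148954586-148954885, minus strand: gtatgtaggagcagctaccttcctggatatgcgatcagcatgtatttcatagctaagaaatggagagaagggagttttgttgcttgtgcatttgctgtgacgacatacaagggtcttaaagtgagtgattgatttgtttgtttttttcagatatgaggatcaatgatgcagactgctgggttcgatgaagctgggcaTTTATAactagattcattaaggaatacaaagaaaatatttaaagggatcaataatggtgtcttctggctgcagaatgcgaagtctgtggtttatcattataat

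A peak was counted at a listed start when it overlapped the stretch from 250 bases before to 50 bases after that start. The Adgrl1 promoter held 28 CpG dinucleotides and a peak in all 22 libraries. The authors' fold enrichment of that peak was 3.13 to 4.07 in hippocampus libraries and 3.32 to 4.38 in frontal cortex libraries. Adgrl3 has 3 listed starts within about 1 kb, with 40, 21 and 20 CpG, and each had a promoter peak in all 22 libraries. The Adgrl3 start with 40 CpG carries GC boxes and had a median fold of 4.35 in hippocampus and 4.53 in frontal cortex. Tenm4, a teneurin with a role in oligodendrocyte differentiation in mouse, had different patterns at its 2 starts. Its downstream start at chr7:96211671, with 12 CpG, had a promoter peak in all 22 libraries. The median fold there was 2.30 in hippocampus and 2.56 in frontal cortex. Its upstream start at chr7:96171244, with 6 CpG, had a promoter peak in 10 of 11 hippocampus libraries and 4 of 11 frontal cortex libraries. The nearest Tenm4 window with a summit in the gene body lay 7692 bp downstream. That window had a peak in 1 frontal cortex library and 0 hippocampus libraries.

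The listed starts of Tenm2 (2 CpG), Tenm3 (10 CpG) and Adgrl2 (4 CpG) had a promoter peak in 0 of 22 libraries. The Tenm3 window contains the palindrome of the cyclic AMP response element. Over all 32851 promoters, a peak in all 22 libraries was found in 6.69% of those with 0 to 4 CpG, in 25.3% with 5 to 9, in 70.6% with 10 to 19 and in 91.9% with 20 or more. Among promoters with 10 to 19 CpG, as in Tenm3, 14.2% had a peak in no library, against 74.8% of those with 0 to 4 CpG, as in Tenm2 and Adgrl2.

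The gene bodies of Tenm2, Tenm3 and Adgrl2 begin upstream of these listed starts, and peaks appeared at those outer 5′ ends. Within 1 kb of the 5′ end of the gene body, Tenm2 had a peak in 11 of 11 hippocampus and 11 of 11 frontal cortex libraries, and so did Adgrl2. Tenm3 had a peak there in 7 of 11 hippocampus libraries and 0 of 11 frontal cortex libraries. The nearest window to the listed Tenm2 start had its summit 149 bp downstream of it. It had a peak in 2 hippocampus libraries, at folds of 2.26 and 2.15, and 0 frontal cortex libraries. The nearest window to the listed Adgrl2 start lay 1430 bp upstream of it, with a peak in 11 of 11 hippocampus libraries and 2 of 11 frontal cortex libraries. The outer end of Tenm3 overlaps the long noncoding RNA gene 4930555F03Rik, so a peak there cannot be assigned to either gene.

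Peaks along the gene bodies were then collapsed into windows that reach 250 bp to each side of a summit, which gave 1582 windows in the 6 genes of 563375 in the genome. Tenm2 (chr11:36006656-37237053, minus strand) spans 1230.4 kb and held 552 windows. Tenm3 (chr8:48225665-49522824, minus strand) is slightly longer, at 1297.2 kb, and held 308, or 23.7 per 100 kb against 44.9 per 100 kb in Tenm2. Tenm4 (chr7:96171244-96911093, plus strand) held 344 windows in 739.8 kb, Adgrl3 (chr5:81019085-81827825, plus strand) 294 in 808.7 kb, Adgrl2 (chr3:148815586-148989096, minus strand) 64 in 173.5 kb and Adgrl1 (chr8:83900098-83941954, plus strand) 20 in 41.9 kb. Tenm3 was thus the sparsest of the 6 per unit length and Adgrl1 the densest, at 47.8 per 100 kb. Of the 1582 windows, 217 (13.7%) had a peak in all 22 libraries and 389 (24.6%) in a single library. Over all windows these shares were 18.4% and 20.6%.

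The windows present in every library were also the stronger ones. Their median rank of peak strength within a library was the 70.7th percentile, against 61.9 for the 36 windows present in all 11 hippocampus libraries and 0 frontal cortex libraries, 42.5 for the 14 with the reverse pattern, and 9.2 for windows of a single library. None of the 36 or 14 tissue-restricted windows lay within 1 kb of a listed start, and their median distances to one were 431.2 and 237.4 kb. Of the 217 windows present in every library, 5 lay within 1 kb of a listed start, with a median distance of 297.8 kb. Of the 389 windows of a single library 0 did, with a median distance of 290.3 kb. A position far from a listed start was therefore not particular to the tissue-restricted windows. The strongest shared window of Tenm4, chr7:96575172-96575672, ranked at the 98.6th percentile and lay 404.2 kb into the gene, with a median fold of 9.41 in hippocampus and 8.33 in frontal cortex. The strongest shared window of Tenm2, chr11:36566069-36566569, had a median fold of 8.89 in hippocampus and 12.4 in frontal cortex, and that of Adgrl2, chr3:148922520-148923020, 11.4 and 9.84 in the same order. Ranked by mean strength alone, the top window of Tenm3 was present in a single hippocampus library. The strongest shared one there, chr8:48555062-48555562, was chosen after its values were seen and had median folds of 7.93 in hippocampus and 8.43 in frontal cortex.

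**Figure D1:**
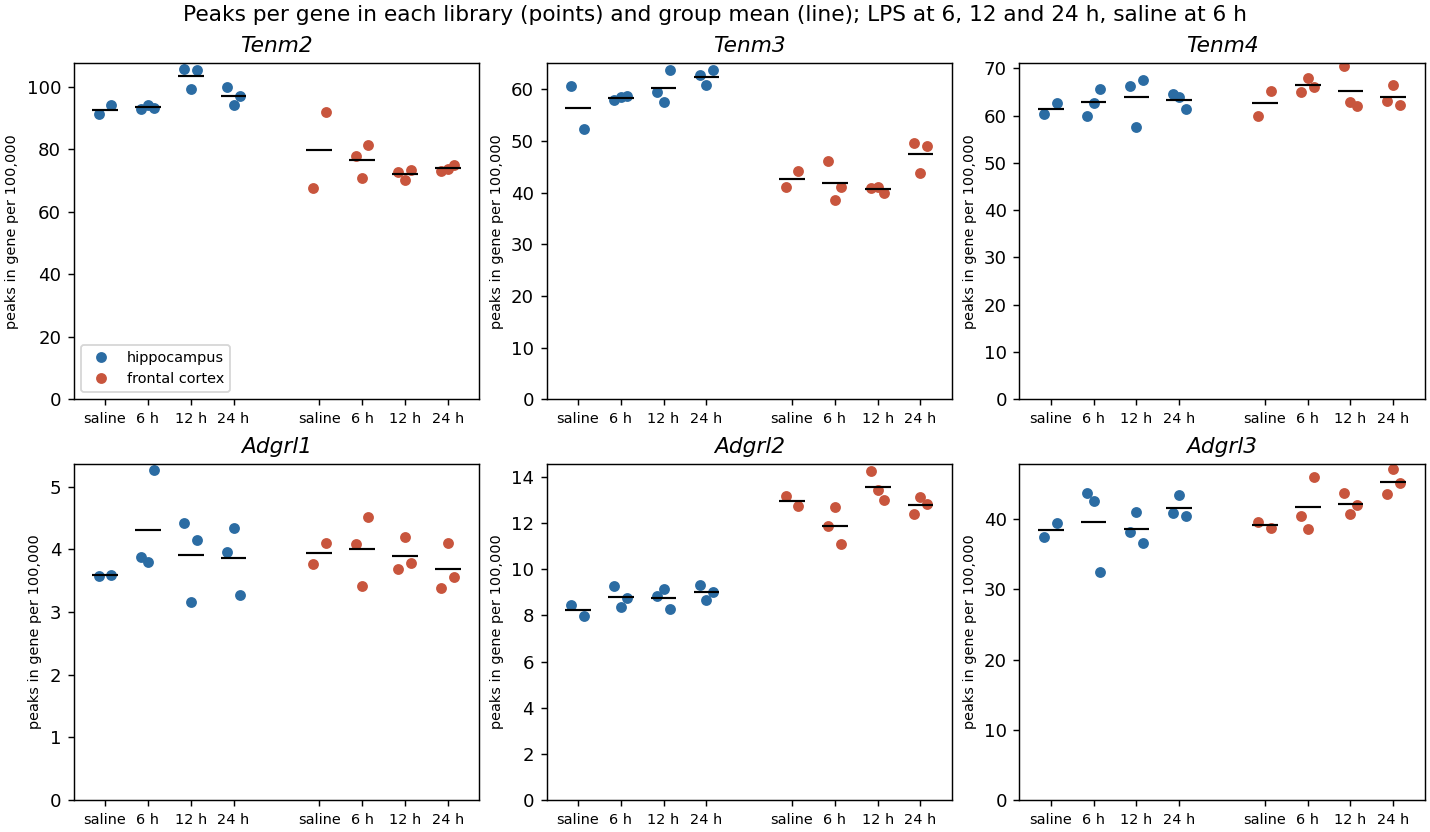
Peaks with a summit in each gene per 100000 distinct intervals of the library (y axis) by group (x axis: saline, then LPS at 6, 12 and 24 h, for hippocampus and for frontal cortex); points are libraries and lines are group means. Every hippocampus point of Tenm3 lies above every frontal cortex point, Adgrl2 shows the reverse, and Tenm4 and Adgrl1 overlap throughout.

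The tissue pattern on which the genes were chosen differed from gene to gene. Tenm2, whose protein is a postsynaptic partner of latrophilin, had 213 to 283 intervals per hippocampus library (median 248) and 145 to 211 per frontal cortex library (median 180). Tenm3 had 131 to 186 (median 154) in hippocampus and 79 to 138 (median 100) in frontal cortex. Per 100000 intervals of the library, Tenm2 ranged from 91.2 to 105.7 in hippocampus and from 67.5 to 92.1 in frontal cortex, so the highest frontal cortex library, a saline library, reached into the hippocampus range. Tenm3 ranged from 52.2 to 63.8 in hippocampus and from 38.6 to 49.6 in frontal cortex, with no overlap. Within animals the mean log2 difference, hippocampus minus frontal cortex, was 0.37 for Tenm2 and 0.46 for Tenm3, and both were higher in hippocampus in 11 of 11 animals. Over 6470 genes the median of that log2 difference was -0.07, and 9.17% of genes had one as high as Tenm2 and 5.92% one as high as Tenm3. The smallest difference in an animal was 0.03 for Tenm2 and 0.24 for Tenm3. How many genes had the same direction in 11 of 11 animals, or ranges without overlap between tissues, was not counted.

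Adgrl2 went the other way. It had 20 to 26 intervals (median 22) in hippocampus libraries and 26 to 36 (median 31) in frontal cortex libraries, or 7.98 to 9.33 and 11.1 to 14.3 per 100000. Its log2 difference was -0.54, with 0 of 11 animals higher in hippocampus, and 96.3% of genes had a difference as high or higher. Adgrl3, which has been linked to attention deficit hyperactivity disorder in human genetics, had 74 to 117 intervals (median 110) in hippocampus and 79 to 127 (median 100) in frontal cortex, and its log2 difference of -0.10 was positive in 4 of 11 animals. Tenm4 had 150 to 185 and 139 to 175 intervals in hippocampus and frontal cortex, with a log2 difference of -0.04. Adgrl1 had 8 to 12 and 7 to 11, with a log2 difference of 0.01. The ranges of these 3 genes overlapped between tissues.

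The windows were sorted by tissue with a rule applied to all windows of the genome, Fisher's exact test on presence with Benjamini-Hochberg adjustment over all windows compared. The sorting describes the contrast on which the genes were chosen and is no test of them. Of the 926 member windows present in 2 to 20 libraries, 189 were sorted towards hippocampus and 95 towards frontal cortex, or 122 and 52 with a sorting paired by animal (exact sign test per window). The share called was 30.7% in the 6 genes and 30.5% over the genome, where 18.3% leaned to hippocampus and 12.2% to frontal cortex. Tenm3 had 69 windows towards hippocampus and 20 towards frontal cortex of 212 compared (42.0% called). Tenm2 had 61 and 20 of 325 (24.9%), and 75.3% of its called windows were towards hippocampus, against 60.0% genome-wide. Tenm4 had 35 towards hippocampus and 29 towards frontal cortex of 186, with little net lean. Its share called was 34.4%, not far from the 30.5% over the genome. Adgrl3 had 21 and 19 of 160, Adgrl2 3 and 7 of 34, and Adgrl1 0 and 0 of 9. The Tenm4 balance turned with the peak threshold: with stricter peaks (−log10 q of 5 or more) it was 17 towards hippocampus and 29 towards frontal cortex.

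**Figure D2:**
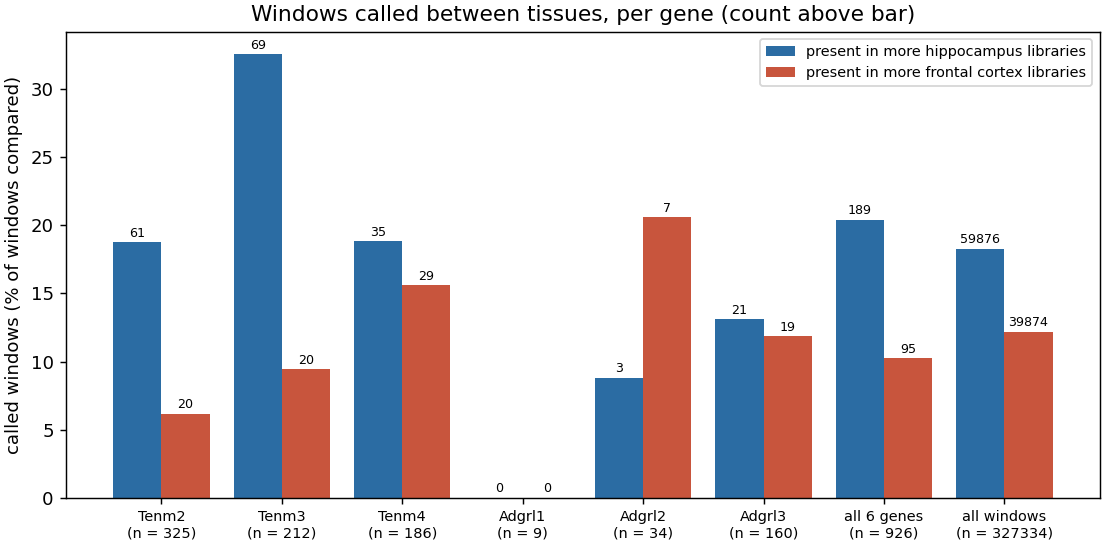
Share of compared windows called in each direction between tissues (y axis, %) for each gene, for the 6 genes together and for all windows (x axis, number compared in brackets); numbers above the bars are windows called. Tenm3 stands highest towards hippocampus with 69 windows, Adgrl2 is the gene with more windows towards frontal cortex (7 against 3), and Adgrl1 has 0.

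The called windows of Tenm3 were unevenly placed. Divided into 4 equal stretches from 5′ to 3′, the gene held 22, 10, 15 and 22 windows towards hippocampus and 1, 3, 1 and 15 towards frontal cortex. The 3′ stretch held 139 of the 308 windows, 15 of the 20 towards frontal cortex and 22 of the 69 towards hippocampus. Tenm2 held 18, 17, 16 and 10 windows towards hippocampus and 3, 3, 7 and 7 towards frontal cortex in the same order. In Tenm4 the stretches held 5, 11, 7 and 12 towards hippocampus and 5, 10, 9 and 5 towards frontal cortex.

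**Figure D3:**
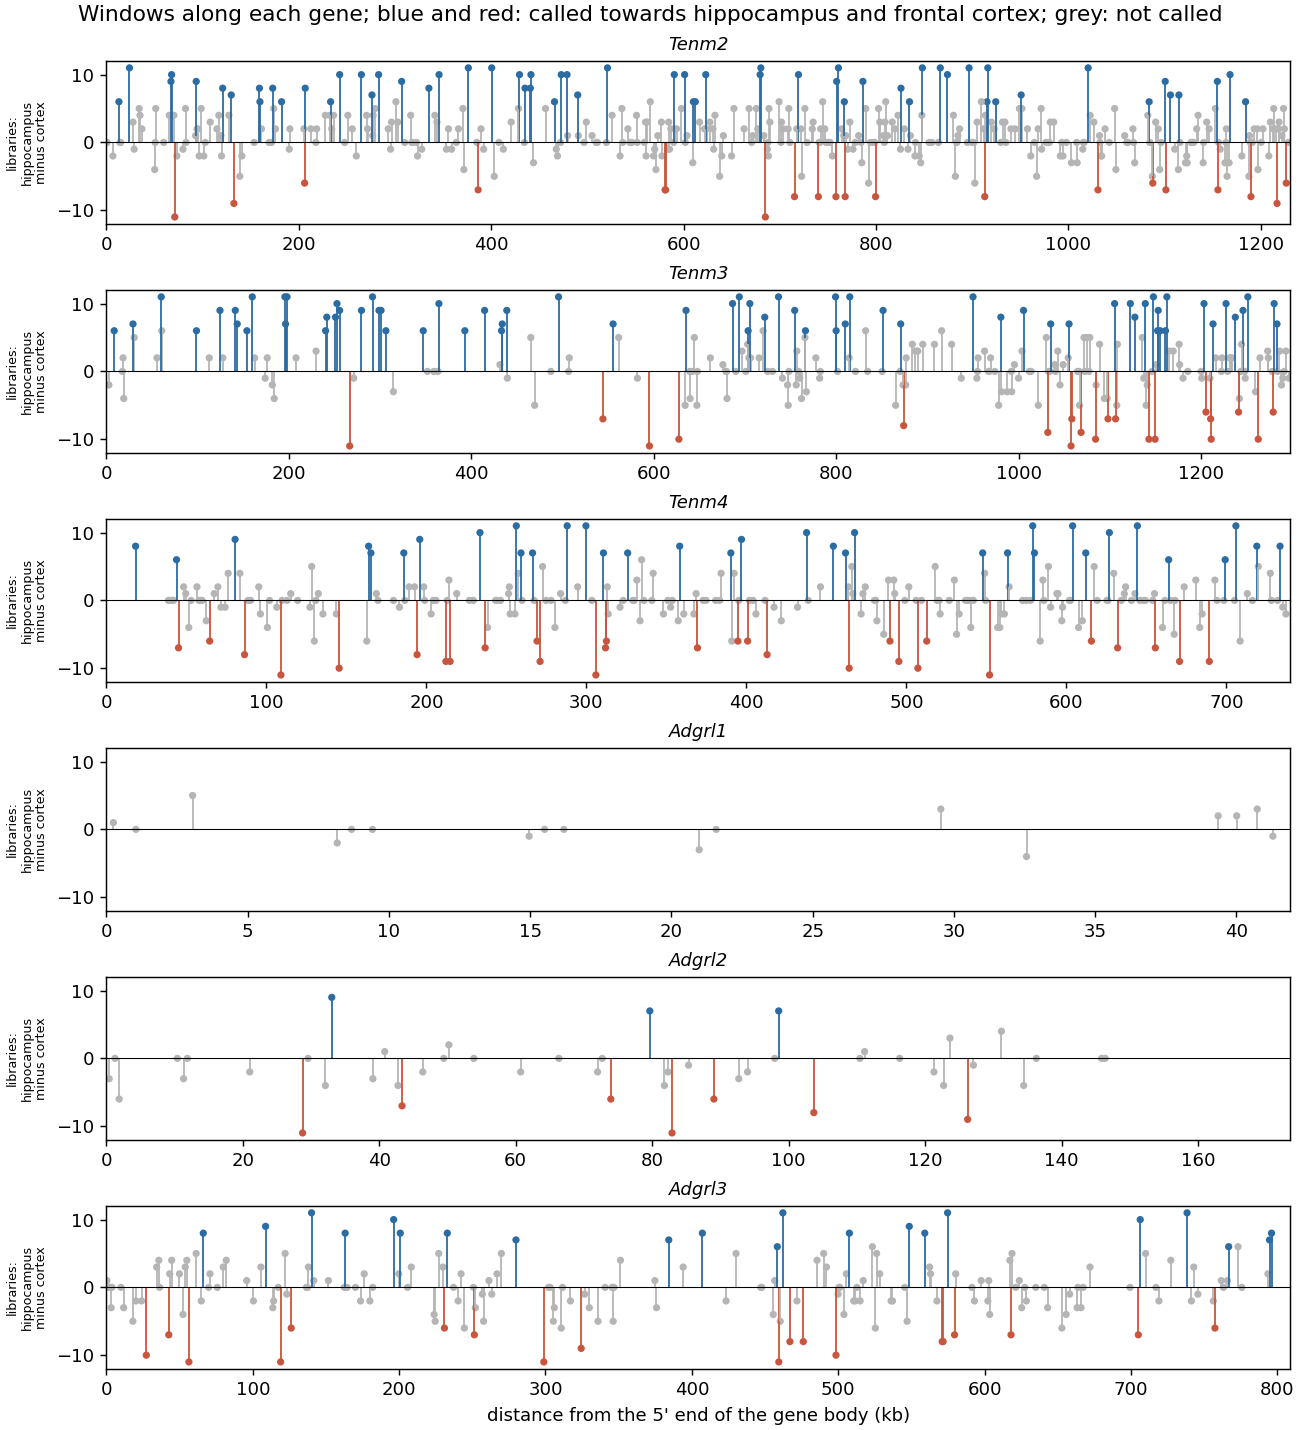
Windows present in 2 or more libraries along each gene: x axis, distance from the 5′ end of the gene body (kb); y axis, hippocampus libraries minus frontal cortex libraries with a peak. Blue marks windows called towards hippocampus, red those towards frontal cortex and grey the remainder; in the first of 4 equal stretches of Tenm3 22 windows are blue, 1 is red and 18 are grey, and in the last 22 are blue and 15 red.

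Several sites were present in every library of a tissue and in none of the other. Over the 6 genes together such sites were no more frequent than over the genome. In Tenm2 the highest ranked such hippocampal window, chr11:36836284-36836784, lay 400.5 kb from the 5′ end with a fold of 6.37 to 9.05 over 11 hippocampus libraries. In Tenm3 chr8:48828942-48829442 had a fold of 6.57 to 8.55 and chr8:49326967-49327467 a fold of 5.04 to 9.35 over the 11 hippocampus libraries, and in Adgrl3 chr5:81593557-81594057 had 3.55 to 7.56. Of the frontal cortex windows of this kind, the highest ranked of Tenm2, chr11:36551817-36552317, had a fold of 3.17 to 6.18, and that of Adgrl3, chr5:81478250-81478750, 3.84 to 6.76 over 11 frontal cortex libraries. Opposite sites could be near neighbours. The Adgrl3 frontal cortex window lay 459.4 kb into the gene and the hippocampus window chr5:81481025-81481525 lay 462.2 kb in. In Tenm4 the hippocampus window chr7:96470722-96471222 and the frontal cortex window chr7:96476913-96477413 lay 299.7 and 305.9 kb in. Adgrl1 had no window present in all 11 libraries of 1 tissue and 0 of the other.

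The genes whose peak number moved most like each member over the 22 libraries were found among 3587 genes with a mean of 10 or more intervals. The 22 libraries fall into the 2 tissues, so these values carry the tissue difference and are a description. For Tenm2 they included Elp4 (Pearson r = 0.92) and Clybl (0.91), and for Tenm3 Slc44a5 (0.95), Ndst4 (0.95) and Clybl (0.94). For Adgrl2 they included Pcdh7 (r = 0.96), a protocadherin, and Epb41l2 (0.96). Adgrl3 was most like Sorcs3 (r = 0.87) and Frmpd4 (0.86). Tenm4 reached 0.76 with Smg6 and Adgrl1 0.66 with Ephx4.

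LPS against saline was tested on the number of peaks per gene with limma, and none of the 6 genes passed an adjusted p of 0.05 in any comparison. In hippocampus, pooled over the 3 times, 0 of 6 members were called, against 0.0151% of 6627 genes, and in frontal cortex 0 of 6, against 0.0% of 6370 genes. At an unadjusted p under 0.05, 0 of 6 members passed in hippocampus (6.91% of all genes) and 1 of 6, Adgrl3, in frontal cortex (7.54% of all genes). An exact permutation test of 9 LPS against 2 saline libraries cannot give a two-sided p below 0.0364, so after adjustment it could hardly call a gene. The lowest p of a member in it was 0.109 before adjustment.

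In hippocampus the estimates were positive for 6 of 6 members at each time, where 52.2% of all genes were positive at 6 h, 46.3% at 12 h and 46.6% at 24 h. The signs were not stable. Pooled over times, the log2 estimate of Tenm4 was -0.04 with stricter peaks (−log10 q of 5 or more), Tenm2 was -0.02 and Tenm3 -0.14 among the 50000 strongest peaks of each library, and Tenm3 was -0.01 without saline replicate 3. Tenm2 had 92.8, 94.2 and 93.3 peaks per 100000 at LPS 6 h, 105.7, 99.4 and 105.3 at LPS 12 h and 100.1, 94.3 and 97.0 at LPS 24 h, against 91.2 and 94.1 in saline. All 3 libraries at 12 h lay above both saline libraries, and so did those at 24 h by a narrow margin. Adgrl1 at 6 h, and Tenm3, Adgrl2 and Adgrl3 at 24 h, were separated from saline in the same direction. For Adgrl1 the libraries held 10, 10 and 12 intervals against 11 and 9 in saline, which overlap before scaling to list length. Such a separation of 3 from 2 libraries allows no exact p under 0.05, and its share over all genes was not counted. The log2 change of Tenm2 at 12 h was 0.16 (SE 0.05, limma adjusted p = 0.504), and it was 0.04 with stricter peaks and -0.06 among the 50000 strongest. In that comparison 0.0% of genes were called, and 1 of 6 members, Tenm2, had an unadjusted p under 0.05 (6.58% of genes). Tenm3 had 58.0, 58.5 and 58.7 at LPS 6 h, 59.5, 57.6 and 63.8 at LPS 12 h and 62.8, 60.8 and 63.8 at LPS 24 h, against 60.6 and 52.2 in saline. The saline libraries differed from each other by more than the libraries of any LPS group. The log2 change of Tenm3 at 24 h was 0.15 (SE 0.06, limma adjusted p = 0.589), with 0.0302% of genes called and Tenm3 as 1 of 6 members at an unadjusted p under 0.05 (7.56% of genes). It was 0.26 without saline replicate 2, 0.05 without saline replicate 3, 0.04 with stricter peaks and -0.30 among the 50000 strongest. At 6 h 0.0% of genes were called, and the lowest adjusted p among the members by limma was 0.938, with 0 of 6 at an unadjusted p under 0.05 (5.06% of genes).

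In frontal cortex Adgrl3 had the lowest p of the 6 genes. It had 40.5, 38.6 and 46.0 peaks per 100000 in the 6 h LPS libraries, 43.7, 40.7 and 42.0 at 12 h and 43.5, 47.2 and 45.2 at 24 h, against 39.6 and 38.8 in saline. All libraries at 12 and 24 h lay above both saline libraries, while those of Adgrl2 at 6 h lay below both. The share of all genes separated in this way was not counted. The log2 change of Adgrl3 at 24 h was 0.21 (SE 0.07, limma adjusted p = 0.292), in a comparison with 0.11% of genes called. Adgrl3 was 1 of 6 members at an unadjusted p under 0.05 (10.7% of genes). Among the 50000 strongest peaks the change of Adgrl3 was -0.28. Tenm3 had 49.6, 43.9 and 49.1 at LPS 24 h, against 41.1 and 44.2 in saline, and a log2 change of 0.15 (SE 0.08, limma adjusted p = 0.491). Tenm2 in frontal cortex had a pooled log2 change of -0.09 (SE 0.07, limma adjusted p = 0.857), which rested on a saline pair at 67.5 and 92.1. Leaving out each library in turn moved it between -0.31 and 0.14. At 6 and 12 h 0.0% of genes were called, with lowest member adjusted p by limma of 0.922 and 0.903, and 0 of 6 members had an unadjusted p under 0.05 (5.59% and 5.9% of genes).

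**Figure D4:**
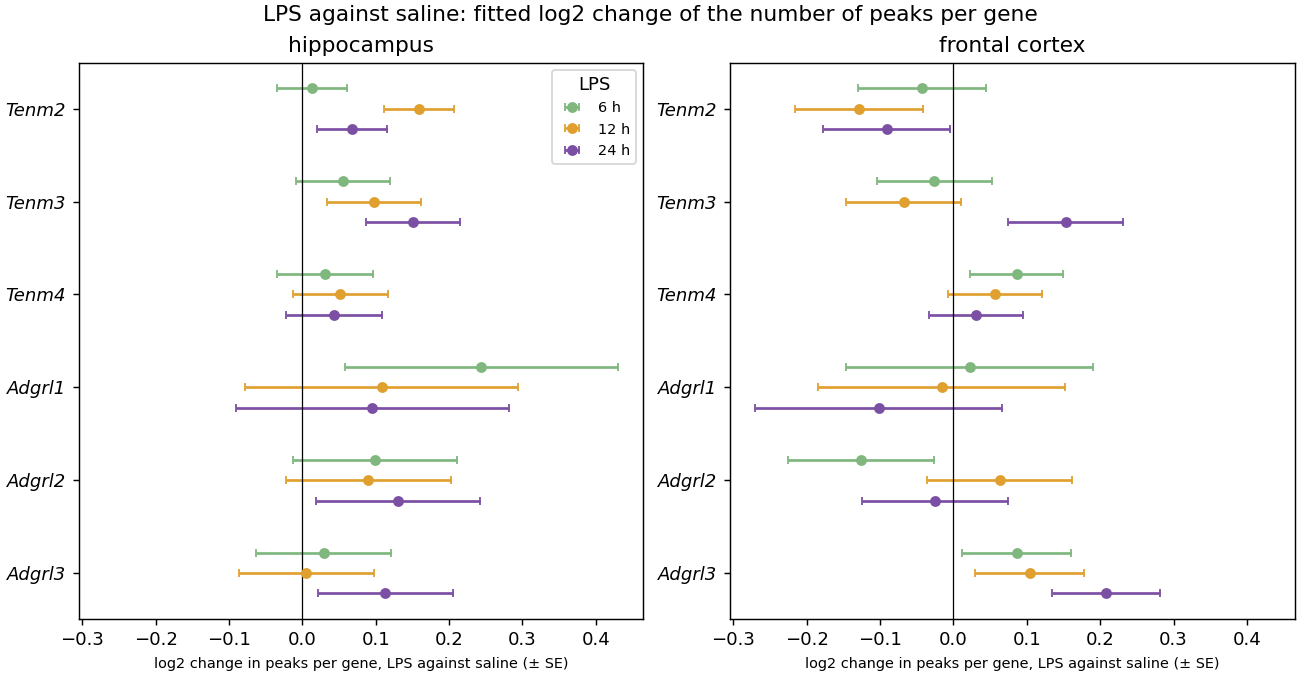
Fitted log2 change in peaks per gene, LPS against saline (x axis, points; bars are ± SE), for each gene (y axis) at 6, 12 and 24 h in hippocampus (left) and frontal cortex (right). All hippocampus estimates lie right of 0, with Tenm2 at 0.16 at 12 h, and Adgrl3 lies at 0.21 at 24 h in frontal cortex, both turning to -0.06 and -0.28 among the 50000 strongest peaks; none passed an adjusted p of 0.05.

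Whether LPS changed the difference between tissues was tested on the difference within each animal, and 0 of 6 members were called, as were 0.0% of 6470 genes, pooled and at each time. At an unadjusted p under 0.05, 0 of 6 passed pooled (5.47% of genes), at 6 h (5.09%), at 12 h (5.33%) and at 24 h (6.2%). Pooled over times, the estimate was 0.18 for Adgrl1 (SE 0.17, limma adjusted p = 0.977), on 7 to 12 intervals per library, and 0.17 for Tenm2 (SE 0.15, limma adjusted p = 0.977). That of Tenm2 was 0.37 without saline replicate 2 and -0.03 without saline replicate 3. Of 20 partner genes of teneurins and latrophilins (among them the teneurin Tenm1, the latrophilin relative Adgrl4, the Flrt and Unc5 genes, Cntn6, the Shank scaffolds, Dag1 and 3 G protein alpha subunits), 19 had enough peaks to be tested. Limma called 0 of the 19 in any of these comparisons. At an unadjusted p under 0.05 in hippocampus pooled over times, 4 of 19 passed upwards and 0 downwards, against 3.58% and 3.33% of all genes, with a median log2 change over the list of -0.03, against -0.01 over all genes. In frontal cortex 0 passed in either direction pooled (4.13% and 3.41% of all genes), and at 24 h 0 passed upwards and 1 downwards (4.8% and 5.93%).

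Sites that appeared or vanished with LPS were counted as windows with a peak in 3 of 3 LPS libraries of a time and 0 of 2 saline libraries, or in 0 of 3 and 2 of 2. This count is a description, since 3 against 2 libraries allow no exact p under 0.05. In hippocampus the 6 genes gained 5 and lost 14 of 966 windows at 6 h, where 0.569% and 1.67% of all windows did so. At 12 h they gained 25 (2.59%) and lost 13 (1.35%), against 1.46% and 1.56% of all windows, and at 24 h they gained 13 and lost 10, against 1.24% and 1.78%. The gains at 12 h lay mostly in Tenm2, with 11 gained and 6 lost, and Tenm3, with 8 gained and 1 lost. With stricter peaks the 12 h counts for the 6 genes were 9 gained and 5 lost, with 3 gained in Tenm2, 2 in Tenm3 and 3 in Tenm4. Among the 50000 strongest peaks of each library they were 4 gained and 2 lost, with 1, 0 and 3 gained in the same order. The concentration in Tenm2 and Tenm3 thus did not hold at these thresholds. At 24 h stricter peaks gave 4 gained and 11 lost.

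In frontal cortex at 24 h the 6 genes gained 40 (4.94%) and lost 5 (0.617%) of 810 windows, in a comparison in which 3.48% of all windows were gained and 0.951% lost. Tenm2 gained 14 and lost 2, Tenm4 gained 10 and lost 0, Tenm3 and Adgrl3 each gained 7 and lost 1, Adgrl2 gained 2 and lost 1, and Adgrl1 had 0 of either. At 6 h the 6 genes gained 3 and lost 12, against 0.715% and 1.27% of all windows, and at 12 h gained 5 and lost 10, against 1.0% and 1.31%. With stricter peaks the 24 h counts were 25 gained and 2 lost, while among the 50000 strongest peaks of each library they were 2 gained and 4 lost. The LPS 24 h peak lists of frontal cortex were also long, with 243813 to 280888 distinct intervals, against 219334 and 265193 in saline, and those at 6 and 12 h held 204561 to 244443. The part of list length in these counts was not tested. Of the 40 windows gained at 24 h, frontal cortex LPS 6 h replicate 1 had a peak at 24, more than the 9 to 15 of the other 5 frontal cortex libraries at 6 and 12 h. Hippocampus libraries had a peak at 16 to 24 of the 40, with 23 and 19 in the saline hippocampus libraries.

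The authors tested accessibility within each tissue against saline with csaw, which works on reads. The authors' deposited table for frontal cortex at 24 h lists 16 regions within the 6 genes as higher and 0 as lower. They lie in Tenm4 (6), Adgrl3 (5), Tenm2 (3) and Tenm3 (2), and Adgrl1 and Adgrl2 have none. A higher region covered 16 of 810 member windows (1.98%), against 1.49% of all windows, and a lower one 0, against 0.155%, so the members' share was near the background for that comparison. The authors' deposited table for hippocampus at 12 h lists 1 region of Tenm2 as higher and 1 of Adgrl3 as lower, each over 0.104% of member windows, against 0.328% and 0.527% of all windows. The other 4 comparisons list no region in the 6 genes. In those, higher and lower regions covered 0.000565% and 0.00621% of all windows in hippocampus at 6 h, 0.0268% and 0.0232% in hippocampus at 24 h, 0.0491% and 0.0478% in frontal cortex at 6 h, and 0.00213% and 0.0128% in frontal cortex at 12 h.

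The region with the lowest FDR lies in an intron of Tenm2 at chr11:36425051-36425210, with FDR 8.74e-08 in the authors' deposited table, and within the noncoding gene Gm33585. It had a peak in 3 of 3 frontal cortex LPS 24 h libraries, at folds of 5.91, 5.08 and 2.80, and in 0 of 2 saline libraries. It also had a peak of fold 5.03 in frontal cortex LPS 6 h replicate 1. An exonic region of Tenm2, chr11:36039901-36040210 (FDR 1.23e-06 in the authors' deposited table), had folds of 5.51, 5.59 and 3.85 at 24 h, 0 of 2 saline libraries with a peak and 0 of 11 hippocampus libraries with a peak. An intronic region of Tenm4, chr7:96657001-96657310 (FDR 5.35e-05 in the authors' deposited table), likewise had a peak in 3 LPS 24 h libraries, 0 saline libraries and 0 hippocampus libraries.

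Other regions had a peak in every hippocampus library. The Tenm3 intronic region chr8:48309651-48310210 (FDR 0.000161 in the authors' deposited table) had frontal cortex peaks in 3 of 3 LPS 24 h and 0 of 2 saline libraries, and hippocampus peaks in 11 of 11 libraries. The Tenm4 region chr7:96481801-96482010 (FDR 0.000184 in the authors' deposited table) and the Adgrl3 region chr5:81477201-81477610 (FDR 0.00215 in the authors' deposited table) had the same pattern. Of the 16 regions, 9 had a peak in all 11 hippocampus libraries, 4 in some and 3 in none. The same shares over all regions listed as higher in that comparison were not counted. In Adgrl3, 4 of 5 regions had a peak in all 11, and the exception at chr5:81533951-81534110 in 5 of 11. In 7 of the 16 regions all 3 frontal cortex LPS 24 h libraries and 0 saline libraries had a peak. The region of Tenm4 at chr7:96723101-96723310 had a peak in all 11 frontal cortex libraries, saline included, so its listing does not rest on a peak appearing.

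**Figure D5:**
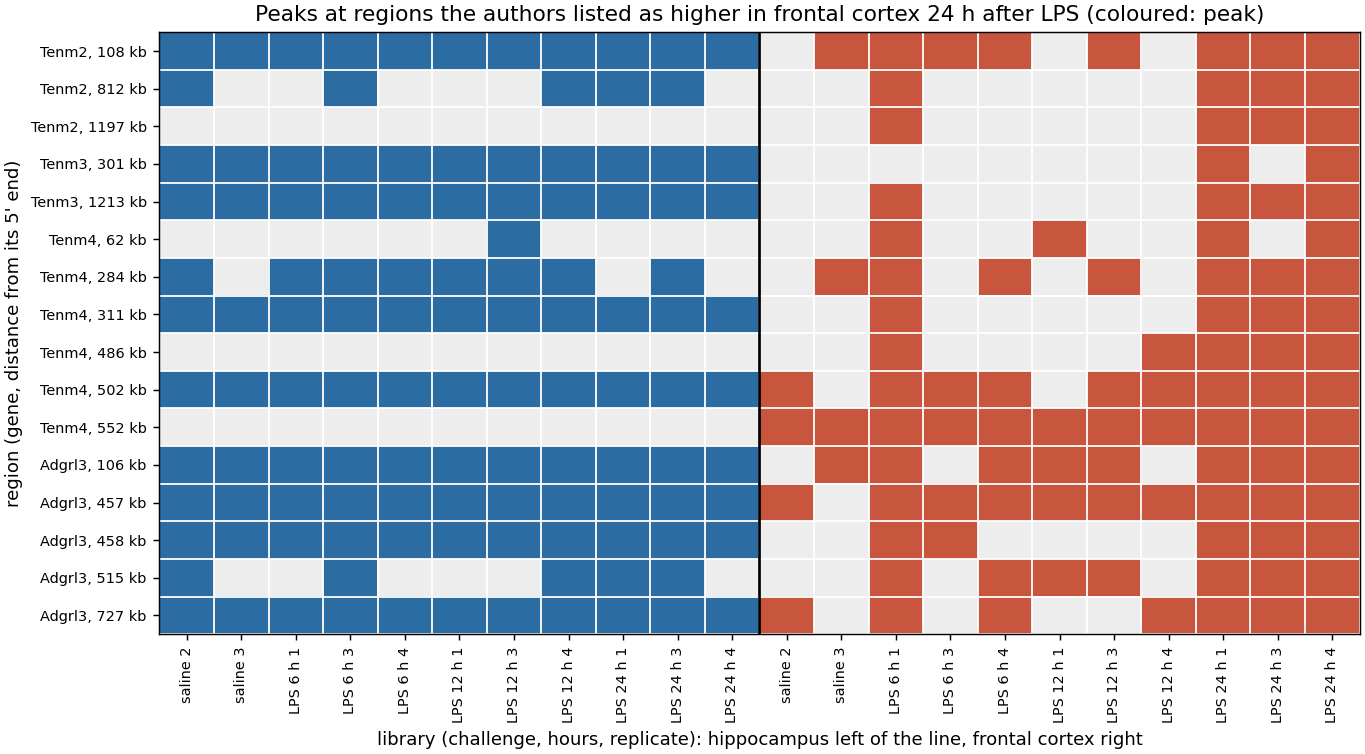
Presence of a peak (coloured) in each library (x axis: hippocampus in blue left of the line, frontal cortex in red right of it, saline then LPS 6, 12 and 24 h) at the 16 regions listed as higher in frontal cortex at 24 h (y axis: gene and distance from its 5′ end). The 24 h frontal cortex libraries have a peak at 14 to 16 of the regions and the saline ones at 4 each, a contrast on which the regions were listed. Frontal cortex LPS 6 h replicate 1 has a peak at 15.

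By library, the 16 regions had a peak at 16, 14 and 16 in the frontal cortex LPS 24 h libraries, against 4 and 4 in frontal cortex saline. The authors listed the regions from these same libraries, so this difference is no independent result. The other frontal cortex libraries had 5 to 8, apart from LPS 6 h replicate 1 with 15. Hippocampus libraries had 9 to 12, with 9 to 12 in LPS and 12 and 9 in saline libraries. Beside this, the sum of peaks in striatum markers was 54.1 to 56.3 per 100000 in frontal cortex LPS 24 h libraries, against 50.2 to 55.6 in saline, and that of hippocampus markers 87.9 to 91.5, against 83.3 to 89.4. Sums in frontal cortex markers were 76.2 to 81.2, against 75.2 to 76.5, and in microglia markers 9.6 to 11.9, against 10.2 to 10.9. Their part in the result was not tested.

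In hippocampus at 12 h the higher Tenm2 region, chr11:36126351-36126860 (FDR 0.0413 in the authors' deposited table), had peaks in 3 of 3 LPS libraries, at folds of 3.20, 3.21 and 2.42, and in 2 of 2 saline libraries, at 3.11 and 2.37. The lower Adgrl3 region, chr5:81612001-81612210 (FDR 0.0382 in the authors' deposited table), had peaks of 4.09 and 2.57 in 2 of 3 LPS 12 h libraries and of 6.42 and 4.10 in the saline libraries. The folds of LPS and saline libraries overlapped at the Tenm2 region. At the Adgrl3 region they were barely apart, at 4.09 against 4.10, and the remaining LPS 12 h library had no peak.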

How the data were processed

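OMNI-ATAC-seq with paired-end reads of 50 bp was run on frozen tissue, per the labels' protocols, and the design text says that a further baseline animal was left out for low read depth. Per the submitters' processing notes, the build was GRCm38 and the tools included MACS2 2.2.7.1, Bowtie2 2.4.4, FastQC 0.11.9 and Trim Galore 0.6.7. A shift of reads for the cut site was not given in the sources used here. Each peak came with the authors' score, fold ratio, −log10 p and −log10 q. The fold is their value over background and serves here only to describe a peak within its library. The lists are permissive, with the lowest −log10 p near 2.00 and the lowest −log10 q between 0.501 and 0.643. The csaw tables deposited by the authors give a direction and a value taken as log10 of the FDR times -10.

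Intervals with several summits were counted once. Windows of 250 bp to each side were placed greedily around the strongest summits, and a peak covering 50% of the shorter made a window present. Peaks per gene were compared with limma 3.58.1 in R 4.3.3, as log2 of intervals plus 0.5 per 100000, over protein-coding genes with a mean of 5 or more intervals, a filter all 6 members passed, with Benjamini-Hochberg adjustment over all genes tested. Python 3.11.15, scipy 1.17.1 and numba 0.67.0 were used, and the tests were tested on simulated data. Per the labels, each animal gave both tissues, which pairs the libraries between tissues. P-values for LPS measure the spread between animals.

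The members, lists and rules were chosen with earlier results of these data known. Named were all 6 members, windows at starts, the strongest window, up to 3 windows per direction between tissues, up to 5 regions per comparison by FDR, and 3 similar genes each, of which a selection is printed and some are not reported here. Alternatives were stricter peaks, equal peak numbers, no filter, a pseudocount of 2, other overlaps, an FDR of 0.01, gene bodies extended by 10 kb, replicate blocks, and leaving out each library or animal.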

Additional observations from a re-analysis of the deposited data

How the results depend on the processing

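No member gene was called for LPS against saline, nor for the tissue difference with LPS, under any alternative tried, with the count at 0 for each library or animal left out. The lowest adjusted p from limma over those left-out fits was 0.061 for the comparisons at each time. Among the 50000 strongest peaks 4 or 5 of the 6 genes had enough peaks to be tested. With the replicate number as a block the lowest adjusted p was 0.917 in hippocampus, 0.149 in frontal cortex and 0.107 over the single times, with 0 members called. Libraries with the same number across LPS times correlated at -0.15 to 0.10, and those with different numbers at -0.11 to 0.16. Peak numbers thus gave no sign of a pairing by replicate number, and whether animals were handled in batches cannot be read from them. Without the pairing by animal (no replicate block) the tissue difference also gave 0.

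The 284 windows called between tissues became 174 with the replicate block of animals, 122 towards hippocampus and 52 towards frontal cortex, 73 among the 50000 strongest peaks, and 236 to 255 with each animal left out. The net number towards hippocampus in Tenm4, 6 windows, turned to -12 with stricter peaks and -9 among the 50000 strongest, and that of Adgrl3, 2 windows, ranged from -1 to 7 with each animal left out; the cause was not tested. Switching windows summed to 155 over the 6 comparisons, 94 with stricter peaks and 25 among the 50000 strongest peaks. The 18 regions of the authors' deposited tables became 9 at an FDR of 0.01. Peak presence depends on a caller threshold and on a depth that the lists do not give.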

Other observations

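The partner genes showed tissue values of their own, given here as levels with no test. Tenm1, the remaining teneurin, had 31 to 48 intervals per hippocampus library (mean 40.0) and 21 to 40 per frontal cortex library (mean 31.4). Flrt2, a membrane protein that binds latrophilins, had 17 to 26 in hippocampus (mean 20.0) and 20 to 30 in frontal cortex (mean 26.0), and its log2 difference within animals, hippocampus minus frontal cortex, was -0.49. Dag1, the dystroglycan gene, had means of 10.2 and 12.4 in hippocampus and frontal cortex.

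A region listed as higher in frontal cortex at 24 h in the authors' deposited table, chr7:96911501-96911560 (FDR 0.000613), lies just past the 3′ end of Tenm4 and outside its gene body. It had a peak in 3 of 3 LPS 24 h and 0 of 2 saline frontal cortex libraries, and in 0 of 11 hippocampus libraries.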
